A study of Homo sapiens with 6 samples.

Results

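The EGF family of growth factors, their receptors and the receptor inhibitor ERRFI1 were followed in IMR90 cells, a line of human fetal lung fibroblasts, after ARID1B was raised. ARID1B is a DNA-binding subunit of the SWI/SNF chromatin remodelling complex. The members were chosen by gene symbol, and all 10 of them (HBEGF, AREG, EREG, TGFA, BTC, NRG1, EGFR, ERBB2, ERBB3 and ERRFI1) were found among the 57232 genes of the table. RNA-seq was run on 3 libraries of cells transduced with an empty vector (vector) and 3 of cells transduced with ARID1B cDNA (ARID1B). Both groups were IMR90 cells at passage 13, grown in 10% FBS, selected with puromycin up to day 4 and collected on day 6, so the controls carry the virus and the drug treatment too. The promoter that drives the cDNA is not given in the sources used here, nor whether the selected cells were kept as a pool. The comparison asks which transcripts change when ARID1B is raised, a setting that was studied for its senescent-like arrest.

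EGF family ligands are made as membrane-anchored precursors, are cut free by proteases of the ADAM family and bind receptor tyrosine kinases of the ERBB family, which then pair and signal through RAS and ERK. HBEGF, AREG, EREG, TGFA and BTC bind EGFR, NRG1 binds ERBB3 and ERBB4, ERBB2 has no known ligand and serves as a partner, and ERRFI1 (MIG6) binds the EGFR kinase and inhibits it. Fibroblasts express EGFR, and several of the ligands, AREG and EREG among them, are known parts of the secretory phenotype of senescent fibroblasts.

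EREG, AREG and BTC lie next to each other on chromosome 4, and their promoters are shown with those of HBEGF, the ligand with the most transcript, and EGFR, the receptor with the most. Each sequence is the 250 bases before the annotated start in RefSeq (GRCh38.p14), read 5′ to 3′ on the strand of the gene. Capitals mark matches on either strand to 4 short motifs, the TATA box (TATAAA), the GC box (GGGCGG, read as CCGCCC on the other strand), the AP-1 site (TGANTCA) and the cAMP response element (TGACGTCA). HBEGF is at chr5:140346604-140346853 (minus strand), EREG at chr4:74364895-74365144 (plus strand), AREG at chr4:74444886-74445135 (plus strand), BTC at chr4:74794524-74794773 (minus strand) and EGFR, the first of 2 listed starts, at chr7:55018767-55019016 (plus strand).
HBEGF: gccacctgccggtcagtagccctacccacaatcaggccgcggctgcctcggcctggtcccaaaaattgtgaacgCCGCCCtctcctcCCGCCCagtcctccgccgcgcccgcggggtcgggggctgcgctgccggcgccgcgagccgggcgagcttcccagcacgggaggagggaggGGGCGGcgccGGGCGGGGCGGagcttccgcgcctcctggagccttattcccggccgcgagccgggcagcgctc
EREG: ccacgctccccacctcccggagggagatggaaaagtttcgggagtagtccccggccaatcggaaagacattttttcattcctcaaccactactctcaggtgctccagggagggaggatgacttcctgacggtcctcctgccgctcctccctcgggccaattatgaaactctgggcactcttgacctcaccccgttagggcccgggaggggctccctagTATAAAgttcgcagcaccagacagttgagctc
AREG: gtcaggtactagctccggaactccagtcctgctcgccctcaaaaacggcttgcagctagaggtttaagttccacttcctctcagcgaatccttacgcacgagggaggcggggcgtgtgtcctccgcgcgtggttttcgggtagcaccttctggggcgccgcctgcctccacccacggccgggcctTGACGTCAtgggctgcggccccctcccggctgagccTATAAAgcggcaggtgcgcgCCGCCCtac
BTC: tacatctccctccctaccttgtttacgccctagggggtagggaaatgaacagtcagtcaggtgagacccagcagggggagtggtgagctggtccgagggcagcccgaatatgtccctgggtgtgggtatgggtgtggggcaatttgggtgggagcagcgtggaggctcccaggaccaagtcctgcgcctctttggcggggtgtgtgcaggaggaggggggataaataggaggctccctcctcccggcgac
EGFR: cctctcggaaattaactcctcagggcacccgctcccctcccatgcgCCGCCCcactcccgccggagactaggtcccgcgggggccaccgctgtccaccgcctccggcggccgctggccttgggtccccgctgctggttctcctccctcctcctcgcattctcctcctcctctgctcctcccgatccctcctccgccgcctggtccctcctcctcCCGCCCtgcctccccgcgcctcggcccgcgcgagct

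The HBEGF window held 5 GC boxes, 33 CpG sites and 76.4% G or C, and the EGFR window shown 2 GC boxes and 73.6% G or C. The window of the second listed EGFR start, not shown, held 38.8% G or C, 2 TATA boxes, 2 AP-1 sites and no GC box. EREG and AREG each held a TATA box, starting 32 and 29 bases before the start, and AREG also held a cAMP response element at 65 bases and a GC box. The BTC window, at 62.0% G or C, held no match to the 4 motifs. Among 35116 RefSeq promoters of this length, the TATA box was present in 10.7%, the GC box in 42.6%, the AP-1 site in 6.57% and the cAMP response element in 1.65%, and the median G or C content was 58.0%. A match describes letters only, and these data hold no measurement of binding at these sites.

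The values are FPKM, which scale fragments to the length of each gene and to the total of each library, and their low values step in whole reads. These steps gave between 63386813 and 91924514 reads per library, with a median of 2283 to 3352.5 reads for the genes tested. ARID1B itself stood at 2.29, 1.31 and 2.05 FPKM with the vector and 32.5, 21.0 and 28.3 FPKM with ARID1B (log2 change 3.29 with SE 0.208, adjusted p = 0.0255, and 3.30 with adjusted p = 0.838 without both replicates 3). The summed level of 9 fibroblast markers, most of it from COL1A1, COL1A2 and VIM, lay between 1947 and 2631 FPKM with the vector and between 1912 and 2667 FPKM with ARID1B. Single markers moved apart from this sum, since LUM was higher in every ARID1B library (50.8 FPKM or more, against 42.4 FPKM or less), VIM lower (556 FPKM or less, against 564 FPKM or more), and COL3A1 was 38.3 FPKM in vector replicate 2 against 125 FPKM or more in the others. Of 9 epithelial markers 1 reached a mean of 1 FPKM (KRT19), the summed level was 4.79 to 15.8 FPKM with the vector and 4.17 to 6.40 FPKM with ARID1B, and KRT5, ESRP1 and SFTPC were at 0 in every library. Vector replicate 2 stood apart, scoring 48.5 on the first principal component (63.8% of the variance) where the other 5 libraries scored -20.0 to 3.63, and it was also the highest for KRT19 (14.3 FPKM). Replicate 3 of each group lay near a weighted mean of replicates 1 and 2, in which replicate 1 had a weight of 83.1% (vector) or 76.0% (ARID1B). All SDs and p-values take the 3 libraries of a group as independent. Without both replicates 3 no gene passed with limma, members included (87 higher and 27 lower at an unadjusted p below 0.05), and the log2 changes of the tested members were 0.62 for HBEGF, 0.33 for EREG, 0.05 for NRG1, 0.18 for EGFR, -0.05 for ERBB2 and 0.30 for ERRFI1 (adjusted p = 0.999 for each). Values without vector replicate 2 are given beside the results they change. Their only controls are vector replicates 1 and 3, and replicate 3 lay near a mean made mostly of replicate 1. If these 2 libraries are not independent, the SEs and p-values without vector replicate 2 are too small.

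Of the 10 members, 6 reached a mean of 1 FPKM over the libraries and were tested with limma on log2(FPKM + 1), a scale that understates the change of low genes. None of these 6 passed an adjusted p of 0.05, where 0.0288% of the 10416 genes tested passed as higher and 0 as lower. With limma's voom on the recovered reads none passed either. At an unadjusted p under 0.05 there was 1 member, EREG, on the higher side, beside 4.64% of all genes higher and 5.94% lower (10.6% in all). Of the 6, 5 had a positive log2 change and 1 a negative one, and their median was 0.21, beside -0.02 for all genes tested. EREG was also the 1 member whose groups did not overlap, higher with ARID1B, as were 9.44% of all genes tested (11.1% were lower and separate, 20.5% either way). In bulk RNA, fewer cells expressing a gene and less RNA per cell cannot be told apart.

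**Figure D1:**
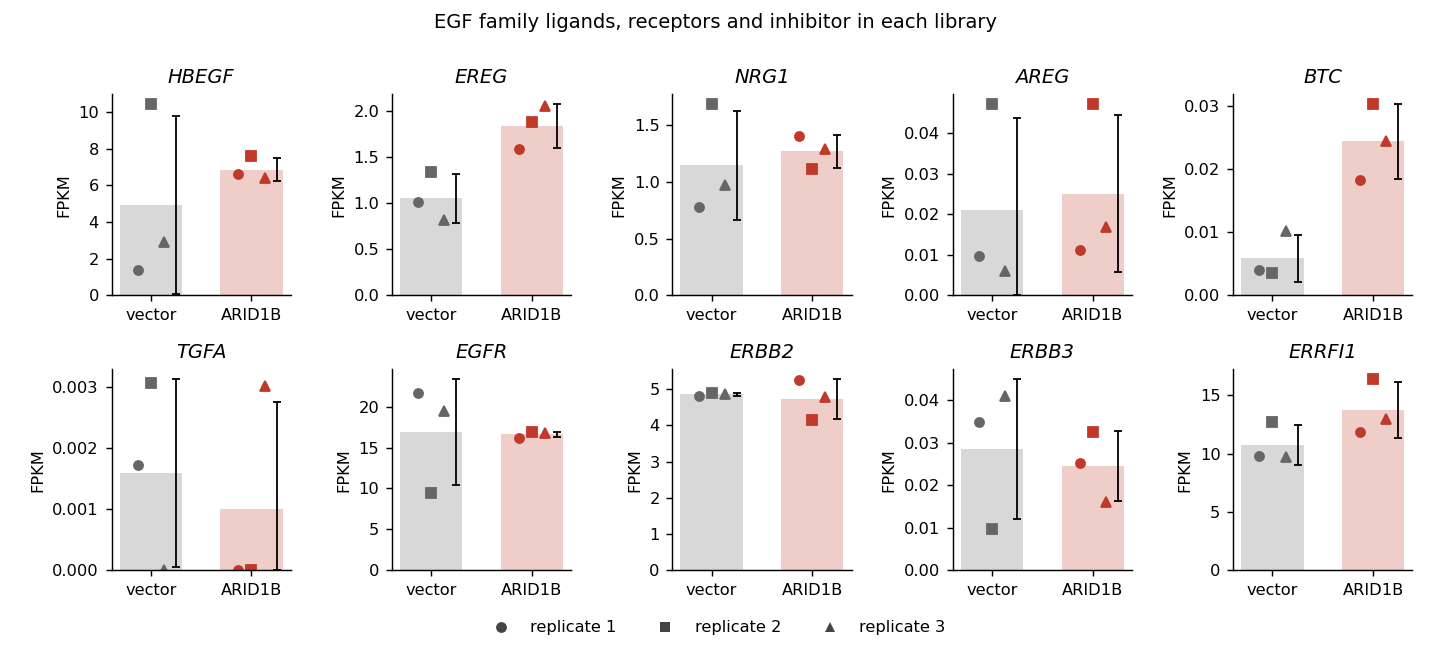
FPKM of the 10 EGF family members by library, vector in gray and ARID1B in red, on linear axes that start at 0 and differ between genes. Bars are means of 3 libraries, whiskers their SD (stopped at 0), and points single libraries with a shape for each replicate number. The groups are separate for EREG and BTC. Vector replicate 2 (square) is the highest vector library for HBEGF, EREG, NRG1, AREG, TGFA, ERBB2 and ERRFI1, by little for ERBB2, and the lowest for BTC, EGFR and ERBB3.

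HBEGF (ENSG00000113070), a heparin-binding ligand of EGFR, was the most abundant ligand on the FPKM scale. With the vector it was present at 1.40, 10.4 and 2.91 FPKM in replicates 1, 2 and 3, and with ARID1B at 6.60, 7.57 and 6.38 FPKM in the same order, which all values below follow. The vector libraries thus spanned 7.45-fold and enclosed all 3 ARID1B libraries, which spanned 1.19-fold. The means were 4.92 ± 4.85 FPKM (SD, n = 3) with the vector and 6.85 ± 0.631 FPKM (SD, n = 3) with ARID1B. The log2 change was 0.72 (SE 0.538, 95% interval -0.58 to 2.02, adjusted p = 0.675 from limma), a difference smaller than the spread between replicates. An exact two-sided permutation test gave p = 0.4, where 3 against 3 libraries cannot go below 0.1. Without vector replicate 1 the log2 change was 0.23. Without vector replicate 2 it was 1.35 (SE 0.211, 95% interval 0.83 to 1.88, adjusted p = 0.0426 from limma), where SE and p take vector replicates 1 and 3 as independent. The reads behind these values were 551, 4617 and 900 with the vector and 2255, 2738 and 2864 with ARID1B, so counting error is small beside the gap between vector libraries.

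EREG (ENSG00000124882) encodes epiregulin, a ligand of EGFR and ERBB4, and has the TATA box promoter printed above. Its level was 1.01, 1.34 and 0.818 FPKM with the vector and 1.59, 1.88 and 2.06 FPKM with ARID1B. Each ARID1B library lay above the highest vector library. The means were 1.06 ± 0.266 FPKM (SD, n = 3) and 1.84 ± 0.240 FPKM (SD, n = 3). The log2 change of 0.47 (SE 0.128) did not pass (adjusted p = 0.325 from limma), and an exact two-sided permutation test gave p = 0.1, the smallest the design allows. Without vector replicate 2 the log2 change was 0.57 (SE 0.0992, adjusted p = 0.0495 from limma), with the same limit on its SE and p. The log2 change was 0.29 after a correction for G or C content and transcript length (adjusted p = 0.698), 0.77 with a pseudocount of 0.1 and 0.81 by voom on the recovered reads (adjusted p = 0.334). The EREG transcript held 36.1% G or C, below the median of 47.8% for the genes tested, and across 10195 genes, which are not independent, log2 change and G or C content had a Spearman's rho of -0.55 (-0.27 without vector replicate 2).

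NRG1 (ENSG00000157168), neuregulin 1, stood at 0.777, 1.69 and 0.974 FPKM with the vector and 1.41, 1.12 and 1.29 FPKM with ARID1B. Vector replicate 2 was again the highest library, and the groups overlapped. Its log2 change was 0.10 (SE 0.167, adjusted p = 0.827 from limma), smaller than the spread of the vector libraries. The direction was not stable, at 0.28 without vector replicate 2 (adjusted p = 0.144), -0.02 without vector replicate 1 and -0.05 after the G or C and length correction.

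The other ligands were close to the limit of detection and were not tested. BTC (ENSG00000174808), betacellulin, a ligand of EGFR and ERBB4, had 1, 1 and 2 reads in the vector libraries and 4, 7 and 7 in the ARID1B libraries. All 3 ARID1B libraries held more BTC reads than any vector library, on FPKM too, with a highest vector value of 0.0101 and a lowest ARID1B value of 0.0184. Summed per group and scaled to the totals, the ratio of ARID1B to vector was 4.47, with an exact 95% interval of 1.47 to 18.2 that covers counting error only and not the spread between libraries. AREG (ENSG00000109321), amphiregulin, had 2, 11 and 1 reads with the vector and 2, 9 and 4 with ARID1B, a ratio of 1.06 (95% counting interval 0.479 to 2.38). Replicate 2 held the most AREG reads in both groups. AREG is uncertain because the table also lists a near-identical copy, AREGB, at 0 in every library, and the authors' counting could split or drop shared reads. TGFA (ENSG00000163235) had 3 reads in all with the vector and 2 with ARID1B, both at or under the floor of 3 reads, so no fold is given.

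EGFR (ENSG00000146648) had the highest mean FPKM of the members. It was present at 21.7, 9.50 and 19.5 FPKM with the vector and at 16.2, 16.9 and 16.7 FPKM with ARID1B. Vector replicate 2 was the lowest library and the other vector libraries were the highest, so the groups overlapped and their means were 16.9 ± 6.51 and 16.6 ± 0.357 FPKM (SD, n = 3 each). The log2 change was 0.05 (SE 0.293, adjusted p = 0.956 from limma), with a 95% interval of -0.66 to 0.76. An exact two-sided permutation test gave p = 1.0. Without vector replicate 2 the sign turned and the log2 change was -0.30 (SE 0.0814, adjusted p = 0.110 from limma), with every ARID1B library below the remaining vector libraries, and after the G or C and length correction it was -0.09. Its antisense gene EGFR-AS1 was listed with 1 read in 1 library, and whether counting used the strand is not stated.

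ERBB2 (ENSG00000141736), the partner receptor with no known ligand, showed the least spread with the vector, at 4.81, 4.89 and 4.87 FPKM. With ARID1B it was 5.25, 4.13 and 4.79 FPKM, values on both sides of the vector libraries. The log2 change was -0.04 (SE 0.110, 95% interval -0.30 to 0.23, adjusted p = 0.908 from limma), and it turned to 0.04 without ARID1B replicate 2 and to 0.05 after the G or C and length correction. ERBB3 (ENSG00000065361), a receptor for NRG1 with little kinase activity of its own, was listed at 0.0348, 0.00977 and 0.0411 FPKM with the vector and at 0.0253, 0.0325 and 0.0160 FPKM with ARID1B. Its reads, 57, 18 and 53 against 36, 49 and 30, summed to a ratio of 0.892 (95% counting interval 0.688 to 1.16), and vector replicate 2 held the fewest.

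ERRFI1 (ENSG00000116285), the intracellular inhibitor of EGFR, is itself known to be induced by EGFR signalling. It stood at 9.83, 12.7 and 9.70 FPKM with the vector and at 11.8, 16.4 and 12.95 FPKM with ARID1B. Only vector replicate 2 overlapped with the ARID1B libraries, and within each group replicate 2 was the highest. The means were 10.7 ± 1.69 and 13.7 ± 2.39 FPKM (SD, n = 3 each). The log2 change of 0.32 (SE 0.167) did not pass (adjusted p = 0.552 from limma), and an exact two-sided permutation test gave p = 0.2. Without vector replicate 2 the log2 change was 0.44 (adjusted p = 0.141 from limma), and without ARID1B replicate 2 it was 0.20.

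**Figure D2:**
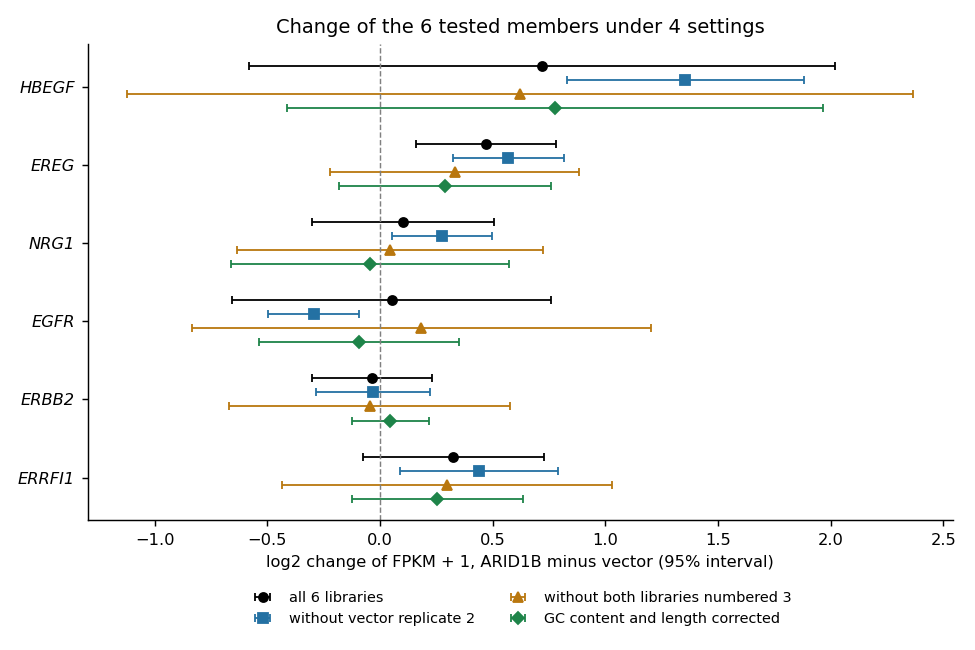
Log2 change of FPKM + 1 (ARID1B minus vector, x axis) with its 95% interval for the 6 tested members (y axis), under 4 settings given by colour and marker. HBEGF moves from 0.72 with all libraries to 1.35 without vector replicate 2, EGFR from 0.05 to -0.30, and the intervals of ERBB2 include 0 in each setting.

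Leaving out vector replicate 2 thus changed the call or the sign of 3 of the 6 tested members, HBEGF, EREG and EGFR. Without it, 2 of the 6 tested members passed as higher (HBEGF and EREG), where 1.2% of all genes tested passed as higher and 1.91% as lower. These calls take the remaining vector libraries as independent, which their closeness leaves uncertain. In the 5 libraries left, the groups did not overlap for 4 members higher with ARID1B (HBEGF, EREG, NRG1 and ERRFI1), as for 18.8% of all genes, and for 1 lower (EGFR), as for 23.9% (42.7% either way). What sets vector replicate 2 apart was not tested.

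Ligand and receptor transcripts were also set side by side within each library. Comparing levels between genes rests on the gene lengths behind the FPKM, which the steps imply to be 4880 bases for HBEGF and 16109 for EGFR, above the 3018 and 12521 exonic bases of GENCODE v29. They were 6729 against 4186 bases for ERRFI1, 6420 against 5717 for EREG and 16478 against 11328 for NRG1. The excess differs between genes. The order of EGFR and ERRFI1, and of EREG and NRG1, could therefore differ with other lengths. On the FPKM scale EGFR had the highest mean in both groups and ERRFI1 the next. The ranges of these neighbours overlapped with the vector and with ARID1B. HBEGF and ERBB2 followed. With the vector HBEGF overlapped with both ERRFI1 and ERBB2, while with ARID1B HBEGF (6.38 FPKM or more) lay above ERBB2 (5.25 FPKM or less). NRG1 and EREG came last of the tested members. Their FPKM values overlapped with the vector and were separate with ARID1B, where EREG was the higher. This separation rests on the lengths above. The summed FPKM of the 6 ligands was 3.20, 13.5 and 4.72 with the vector and 9.62, 10.6 and 9.78 with ARID1B, or 7.15 ± 5.58 and 10.0 ± 0.550 (SD, n = 3 each). HBEGF made up 43.8, 77.2 and 61.7% of this sum with the vector and 68.6, 71.1 and 65.3% with ARID1B. The ratio of HBEGF to EGFR was 0.0646, 1.10 and 0.149 with the vector and 0.408, 0.449 and 0.382 with ARID1B. The ARID1B libraries lay between vector replicate 2 and the other vector libraries for the ligand sum and for the ratio. EGFR held 66.0 to 81.8% of the summed FPKM of its 3 receptor genes (EGFR, ERBB2 and ERBB3) over the 6 libraries.

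**Figure D3:**
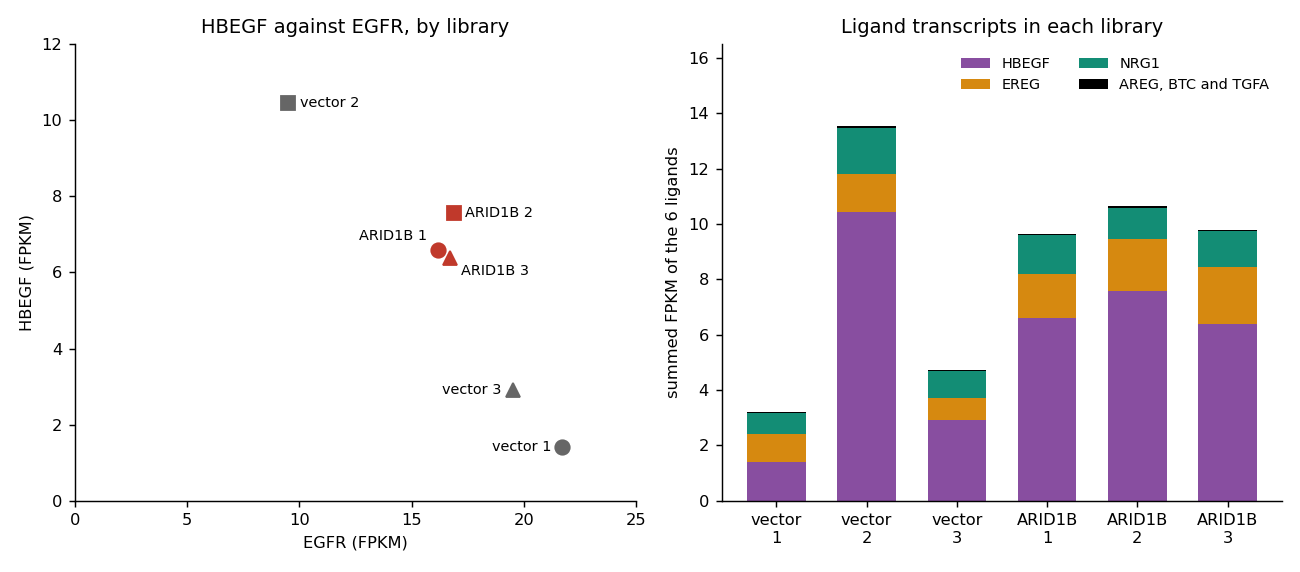
Left, HBEGF (y axis, FPKM) against EGFR (x axis, FPKM) in each library, with the vector in gray and ARID1B in red. Right, the summed FPKM of the 6 ligands in each library, divided by ligand. The ARID1B libraries sit together at 16.2 to 16.9 FPKM of EGFR and 6.38 to 7.57 FPKM of HBEGF, between vector replicate 2 and the other vector libraries.

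The chromosome 4 genes were looked at with their neighbours after the values of EREG and BTC had been seen. In RefSeq order the protein-coding genes are MTHFD2L, EPGN, EREG, AREG, BTC and PARM1, where EPGN encodes epigen, a further ligand of EGFR. EPGN had 0, 2 and 1 reads with the vector and 7, 3 and 7 with ARID1B, a summed ratio of 5.63 (exact 95% counting interval 1.63 to 30.0). For EPGN, EREG and BTC every ARID1B library thus lay above all vector libraries. Such a separation was seen for 9.44% of all genes tested, which include EREG but not EPGN or BTC. No share was computed for genes under a mean of 1 FPKM. AREG, which lies between EREG and BTC, overlapped. The flanking genes also overlapped, at 0.187 to 0.235 FPKM with the vector and 0.213 to 0.264 FPKM with ARID1B for MTHFD2L and at 0.0263 to 0.141 and 0.0773 to 0.372 FPKM for PARM1. Beyond MTHFD2L lies a cluster of CXC chemokine genes, of which only CXCL5, PF4 and PPBP were looked at here. CXCL5 (52, 9 and 22 reads with the vector, 157, 139 and 201 with ARID1B) and PF4 (1, 0 and 0 against 5, 3 and 4) were higher in all ARID1B libraries. PPBP had 0 reads in every library. Separate groups were thus also seen outside the ligand genes, but these picked genes do not describe the cluster as a whole. Of the 6 genes from MTHFD2L to PARM1 only EREG reached the level for testing, and EPGN and BTC rest on 7 reads or fewer in each library.

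**Figure D4:**
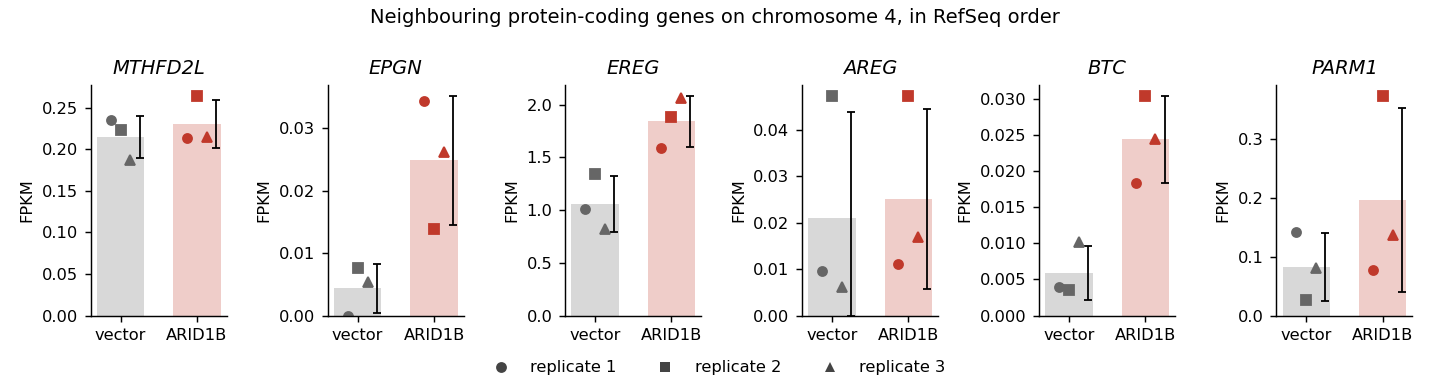
FPKM (y axes, each starting at 0 with its own range) of 6 neighbouring protein-coding genes of chromosome 4 in RefSeq order, with the vector in gray and ARID1B in red. Bars are means of 3 libraries, whiskers their SD (stopped at 0), and points single libraries with a shape for each replicate number. EPGN, EREG and BTC are separate between the groups, and MTHFD2L, AREG and PARM1 overlap.

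The rest of the pathway was described by 5 lists of genes. None of their tested genes passed an adjusted p of 0.05 from limma, and by voom the 1 gene called was ARID1B. The other ligands and receptor (EGF, EPGN, NRG2, NRG3, NRG4 and ERBB4) all stayed under a mean of 1 FPKM, with EGF itself at 0.149 to 0.276 FPKM over the 6 libraries. Of 12 genes for ligand shedding 10 were tested, 6 with a positive and 4 with a negative log2 change and a median of 0.19, and 1 was higher at an unadjusted p under 0.05, beside 4.64% of all genes. ADAM12, a metalloprotease that can release HBEGF, stood at 1.48, 0.419 and 1.31 FPKM with the vector and at 3.29, 3.11 and 3.35 FPKM with ARID1B. Every ARID1B library was above every vector library for ADAM12, as for 9.44% of all genes, with a log2 change of 1.08 (limma, adjusted p = 0.285). It was 1.67 with a pseudocount of 0.1 and 1.83 by voom. Without vector replicate 2 it was 0.83 (limma, adjusted p = 0.0201), past the threshold only if the remaining vector libraries are taken as independent. ADAM19, a related protease, was 11.5, 18.1 and 12.4 FPKM against 22.9, 15.9 and 20.9 FPKM, with overlapping groups and a log2 change of 0.49 (limma, adjusted p = 0.493). ADAM9 was the other of 2 shedding genes that were separate and higher, as were 9.44% of all genes tested. It was 60.7, 25.6 and 47.4 FPKM against 66.2, 61.8 and 71.4 FPKM (log2 change 0.65, limma adjusted p = 0.520).

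All 23 genes for receptor adaptors and the ERK pathway were tested, 15 with a positive and 8 with a negative log2 change and a median of 0.09, which was 0.0069 without vector replicate 2 and 0.21 without vector replicate 1. PTPN11, the phosphatase SHP2 that carries signals from receptors to RAS, was 42.8, 21.0 and 37.4 FPKM with the vector and 53.6, 41.7 and 54.4 FPKM with ARID1B (log2 change 0.60, limma adjusted p = 0.509, and 0.30 without vector replicate 2). MAP2K2, the ERK kinase MEK2, was 18.4, 29.5 and 20.8 FPKM against 19.0, 12.9 and 16.3 FPKM (log2 change -0.47, limma adjusted p = 0.509, and -0.28 without vector replicate 2). For both genes vector replicate 2 was furthest from the other libraries, and the groups overlapped. Among 16 tested of 18 genes for receptor ubiquitination, endocytosis and dephosphorylation, 10 were positive and 6 negative with a median of 0.10, and 1 was higher at an unadjusted p under 0.05, beside 4.64% of all genes. The median turned to -0.03 after the G or C and length correction and to -0.025 without vector replicate 2. PTPRJ, a receptor phosphatase that can act on EGFR, was 1.44, 0.843 and 1.37 FPKM with the vector and 3.71, 2.44 and 3.27 FPKM with ARID1B (log2 change 0.90, limma adjusted p = 0.264, and 1.40 by voom). RNF41, a ubiquitin ligase for ERBB3, was 8.86, 7.79 and 8.49 FPKM against 10.3, 9.69 and 10.0 FPKM (log2 change 0.23, limma adjusted p = 0.487, and 0.13 after the G or C and length correction). The groups did not overlap for PTPRJ and RNF41, which were higher with ARID1B as were 9.44% of all genes tested.

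Of 20 genes known to respond to EGF 17 were tested, 8 positive and 9 negative with a median of -0.04, and an unadjusted p under 0.05 was found for 1 gene on each side, beside 4.64% of all genes higher and 5.94% lower. DUSP5, a nuclear phosphatase of ERK, was 12.7, 29.1 and 15.5 FPKM with the vector and 26.3, 42.6 and 29.3 FPKM with ARID1B, with a log2 change of 0.80 (limma, adjusted p = 0.471). PHLDA1 was 73.2, 42.3 and 65.6 FPKM against 23.6, 45.9 and 31.5 FPKM, with a log2 change of -0.84 (limma, adjusted p = 0.420). For both genes vector replicate 2 reached into the range of the ARID1B libraries. Without vector replicate 2 the median of this list was 0.38.

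**Figure D5:**
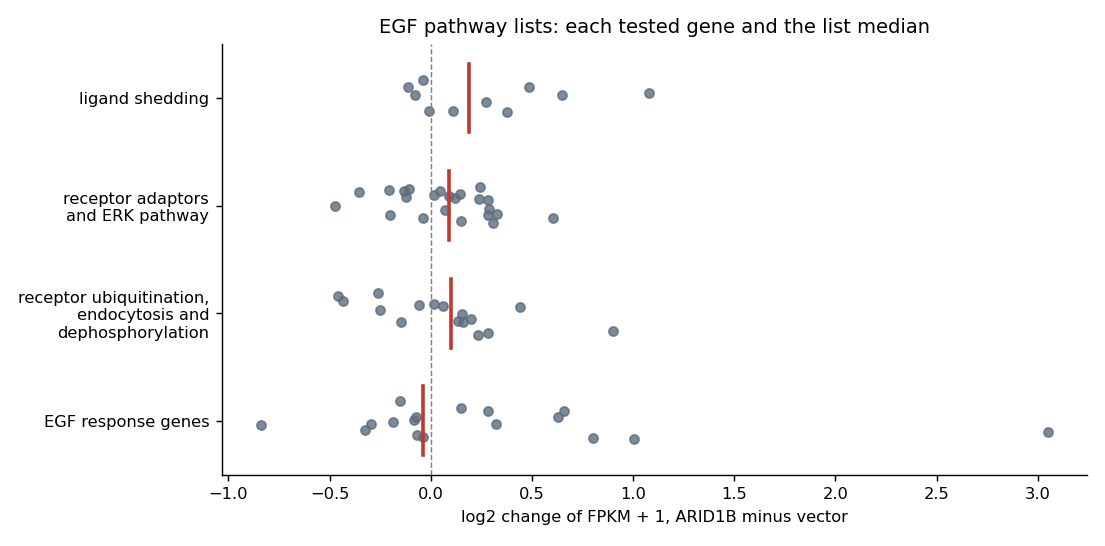
Log2 change of FPKM + 1 (ARID1B minus vector, x axis) of each tested gene in 4 EGF pathway lists (y axis), with points moved up or down only to keep them apart. Red lines mark the list medians of 0.19, 0.09, 0.10 and -0.04 from top to bottom, and the dashed line marks 0.

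For each tested member the 3 genes with the most similar pattern over the 6 libraries were taken, by Pearson's r of log2(FPKM + 1) among 10415 other genes, as a description. These libraries share 1 cell line and 1 library that stands apart, and ranking so many genes over 6 values gives high r. For HBEGF they were SLC35G2, MTX2 and TXNDC12 (0.997, 0.996 and 0.994), for EREG HIGD1A, RINT1 and NPTN (0.987, 0.976 and 0.976) and for NRG1 FARSB, COX17 and RPP40 (0.998, 0.998 and 0.997). EGFR was closest to SNX30, GLI3 and NNT (0.999, 0.999 and 0.998), where GLI3 is a transcription factor of the Hedgehog pathway. ERBB2 was closest to PIP5K1C, PEAR1 and WIZ (0.996, 0.994 and 0.991), and ERRFI1 to ADAMTS1, CD55 and CYR61 (0.995, 0.988 and 0.985), of which ADAMTS1 is a matrix protease and CYR61 a matricellular protein. After the G or C and length correction r fell to 0.790 for SLC35G2 and 0.542 for MTX2 with HBEGF, to 0.808 for HIGD1A and 0.734 for NPTN with EREG and to 0.878 for COX17 and 0.831 for RPP40 with NRG1, and under quantile normalization it was 0.866 for RINT1 with EREG.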

How the data were processed

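IMR90 cells with an empty vector or ARID1B cDNA were measured by RNA-seq in 3 libraries per group, described by the study as biological replicates. The authors deposited FPKM values for 57232 genes. The submitters' processing notes list hg19, DESeq2, HTSeq 0.5.3p9 and TopHat2 2.0.11, with roles, annotation and counting strand not given in the sources used here. To recover reads, the value of 1 read was taken from single-transcript genes of GENCODE v29, and each gene was given the shortest length, in whole bases, at which its 6 values were whole reads within 0.002. Such reads can be too small by a shared divisor, and intervals from them cover counting error only.

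The 10416 genes averaging 1 FPKM or more entered limma 3.58.1 (R 4.3.3), run on log2(FPKM + 1) with its variance trend, with Benjamini-Hochberg adjustment over all of them and a threshold of 0.05. The script was tested on simulated data. Exact permutation tests used scipy 1.17.1 (Python 3.11.15) and plots matplotlib 3.10.9. The members and lists were chosen with earlier results of these data known. Named genes were the members, ARID1B, the 3 most similar genes per tested member and, from each list, genes past the threshold or else the 2 with the smallest p. ADAM9 and SRC were added because their groups did not overlap. Alternatives were no filter, a minimum of 5 FPKM, a pseudocount of 0.1, median-ratio and quantile scaling, no variance trend, a replicate block, each library left out, both replicates 3 left out, a correction for G or C content and length (splines with 5 degrees of freedom, 97.9% of genes matched) and voom on recovered reads. Promoters came from RefSeq (GRCh38.p14) for 8 of the 10 members. NRG1 was not looked up, and no entry was found for ERBB3. No sequence is shown for NRG1, and no gene coordinates are given because the values were made on hg19. Blood, macrophage and endothelial markers were also listed, and their summed levels reached at most 0.107 FPKM and 3.68 FPKM. Most of the endothelial sum came from TEK (0.802 to 3.48 FPKM), while CDH5 was at 0 in every library and PECAM1 was not found.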

Additional observations from a re-analysis of the deposited data

How the results depend on the processing

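The number of genes past the threshold was 3 higher and 0 lower. It was 0 higher with no filter, with the replicate block and without both replicates 3, 1 with voom and 5 with the G or C and length correction, and between 0 and 125 higher and between 0 and 199 lower as each library was left out, where only leaving out vector replicate 2 gave calls. Over these left-out libraries the log2 change ran from 0.23 to 1.35 for HBEGF, 0.39 to 0.57 for EREG, -0.0229 to 0.28 for NRG1, -0.30 to 0.26 for EGFR and -0.10 to 0.0396 for ERBB2. The G or C and length correction turned the sign of NRG1 (-0.0452), EGFR (-0.0946) and ERBB2 (0.0462). ERRFI1 kept its direction and stayed short of the threshold in all 16 alternatives. Of the ligand shedding genes 0 to 1 were called higher as libraries were left out, and the median of the EGF response genes ran from -0.0517 to 0.38. The cause of these shifts was not tested. Same-numbered libraries did not deviate together (correlations of -0.46, -0.43 and -0.17 for replicates 1, 2 and 3). Vector replicate 1 with ARID1B replicate 2 gave 0.43, and vector replicate 2 with ARID1B replicate 1 gave 0.46. Deviations from means of 3 libraries, with replicate 3 near a blend, mostly share an axis. These correlations therefore cannot decide whether the numbers pair the samples. With the replicate number as a block, 0 genes passed, and 342 higher and 262 lower genes had an unadjusted p under 0.05. With 3 libraries per group and the spread of vector replicate 2, the intervals of HBEGF and EGFR leave room for changes in either direction.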

Other observations

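The following genes were chosen after their values were seen. FOS, an immediate early gene that responds to EGF and many other stimuli, was 0.302, 0.238 and 0.279 FPKM with the vector and 0.118, 64.0 and 15.2 FPKM with ARID1B. EGR1, of the same class, was 46.9, 30.7 and 46.2 FPKM with the vector and 21.8, 285 and 87.4 FPKM with ARID1B. For both genes ARID1B replicate 2 was the highest library and ARID1B replicate 1 the lowest, so the ARID1B libraries enclosed the vector libraries. Of the 20 listed EGF response genes, EGR2, EGR3, IER3, LIF, DUSP5 and DUSP6 were also highest in ARID1B replicate 2. The rest of that list, beside FOS and EGR1, were not. EGR2 and EGR3 were under the level for testing. ERRFI1 was also highest in ARID1B replicate 2, and EREG was not. HBEGF was highest in vector replicate 2 and, among the ARID1B libraries, in replicate 2.

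Among the 6 tested members, EREG was the one whose replicates 3 lay farthest from the blend of replicates 1 and 2, in both groups. A weighted mean of replicates 1 and 2, at the weights fitted over all genes, gave 1.07 FPKM for EREG with the vector and 1.66 FPKM with ARID1B, where 0.818 and 2.06 FPKM were measured, departures of -23.2% and 24.5%. Of the genes tested 1.49% departed at least this far with the vector and 2.53% with ARID1B, and the median departures were 2.89% and 4.53%. For HBEGF the weighted means were 2.93 and 6.83 FPKM, against 2.91 and 6.38 FPKM measured, and for EGFR 19.7 and 16.4 FPKM, against 19.5 and 16.7 FPKM.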
